A study of Mus musculus with 12 samples.

Results

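The genes described here encode the subunits of potassium and voltage-gated calcium channels in mouse aorta. They were chosen by name from the array's design, as every probe whose gene symbol begins with Kcn or with Cacna, Cacnb or Cacng and follows that naming scheme. The scheme took in 121 genes with 184 probes, and 67 of the genes were kept, each with a probe that Agilent's software called well above background on every array of 1 or more groups. They are 67 of the 22761 genes tested in all. Of the 54 genes that were not kept, 36 had no probe well above background on any of the 12 arrays. Of the 67 kept genes, 56 were well above background on all 12 arrays and 11 were not. Kcnmb1, which encodes the smooth muscle subunit of the large-conductance potassium channel, was kept. Cacna1c, which encodes the pore of the main L-type calcium channel of smooth muscle, was not kept, since its only probe was well above background on 7 of the 12 arrays and never on all 3 of a group.

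Aortic RNA was hybridised to 12 one-colour arrays, 3 for each of 4 groups of male mice of the strain labelled 129S5/SvEvBrd, C57BL6 and SJL. The WT groups were Socs3fl/fl littermates without a Cre transgene, and the smSocs3-KO groups carried Socs3fl/fl and SM22-Cre, in which the promoter of a smooth muscle protein drives the recombinase, so that all 12 samples carried the floxed allele. Each genotype was taken before challenge and at day 3 of BAPN + AngII challenge, in which mice received BAPN, an inhibitor of lysyl oxidases, at 150 mg/kg/day together with AngII at 1000 ng/kg/min from osmotic minipumps. BAPN + AngII challenge leads to aortic dissection (AD) at later times, and the comparison asks which channel genes had changed by day 3 and whether the response differed without Socs3, an inhibitor of Stat3 signalling, in smooth muscle. The labels give no age for the mice, and nothing in them says that arrays of a group were pooled.

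The resting potential of arterial smooth muscle is set largely by potassium channels. Their opening hyperpolarises the membrane, closes voltage-gated calcium channels and relaxes the vessel, and their closing does the reverse. Voltage-gated calcium channels consist of a pore (Cacna1 genes) with alpha2delta (Cacna2d) and beta (Cacnb) subunits that bring it to the membrane and tune its gating. Potassium channels fall into voltage-gated (Kv), calcium-activated (BK, SK and IK), inward rectifier (Kir) and two-pore families, several of which have auxiliary subunits of their own. Kv and BK channels act as a brake on constriction, and Kir6.1, the pore of the vascular KATP channel, ties the membrane potential to metabolism.

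All levels below are log2 of the processed signal relative to the array's own 75th percentile, so that 0 is a signal at that percentile and a step of 1 is a factor of 2 in signal. A level can be compared between arrays for 1 probe and not between probes. A difference is on the same log2 scale, with its standard error (SE) from a linear model of 12 arrays in limma, and its p was adjusted over all 22761 genes by the Benjamini-Hochberg method. Values are given in order of replicate number, which is 1, 2 and 3 for WT before challenge, 1, 3 and 4 for WT at day 3, 1, 3 and 4 for smSocs3-KO before challenge and 2, 3 and 5 for smSocs3-KO at day 3. In RNA from tissue, fewer cells of a type and less RNA per cell cannot be told apart.

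Several facts of the arrays bear on every value. The level of Socs3 was not lower on the arrays labelled smSocs3-KO, at 0.30, 0.32 and 0.75 on WT arrays before challenge against 0.24, 1.14 and 1.46, and at 2.21, 2.30 and 0.64 at day 3 against 3.31, 2.28 and 4.13, and whether its probe lies in the deleted part was not tested. Slide 1 held all 6 WT arrays with smSocs3-KO replicate 1 before challenge, and slide 2 held the remaining 5 smSocs3-KO arrays. At day 3 genotype and slide cannot be told apart. WT replicate 4 at day 3 stood nearer to the arrays before challenge, and of the 67 channel genes it was the WT day 3 array closest to the mean before challenge in 33, against 14 and 20 for replicates 1 and 3. Between 55.4% and 61.2% of the spots other than controls were well above background and no spot was saturated. All 14 smooth muscle contractile markers were measured, and their summed level, in multiples of the 75th percentile, ran from 3727 to 4191 before and 2983 to 3743 after challenge on WT arrays, and 3424 to 4946 before and 2467 to 2959 after challenge on smSocs3-KO arrays.

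Of the 67 kept genes, 53 had an entry among the RefSeq promoters (build GRCm38.p6) and 14 had none, Cacna1g and Kcna1 among them. The 250 bases before the annotated start are shown for Kcnk13, Kcnn3 and Kcns3, the genes with an entry that passed the adjusted threshold in a comparison below, and for Kcnmb1, the gene that marks smooth muscle. They lie at chr12:99964249-99964498 (plus strand), chr3:89519914-89520163 (plus strand), chr12:11150843-11151092 (minus strand) and chr11:33962763-33963012 (plus strand), and are written 5′ to 3′ in the direction of the gene. Kcns3 has more than 1 annotated start, and the first entry is shown. Capitals mark CATTCC, the core bound by TEAD factors, which was searched on both strands. It stands 123 to 118 bases before the start of Kcnk13 and 199 to 194 bases before the start shown for Kcns3. The other Kcns3 entry, at chr12:11150374-11150623 (minus strand), does not hold CATTCC.
Kcnk13: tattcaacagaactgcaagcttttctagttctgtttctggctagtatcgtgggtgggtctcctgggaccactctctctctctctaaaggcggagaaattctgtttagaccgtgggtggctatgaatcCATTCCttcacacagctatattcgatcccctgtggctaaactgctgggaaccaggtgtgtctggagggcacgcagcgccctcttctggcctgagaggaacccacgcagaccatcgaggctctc
Kcnn3: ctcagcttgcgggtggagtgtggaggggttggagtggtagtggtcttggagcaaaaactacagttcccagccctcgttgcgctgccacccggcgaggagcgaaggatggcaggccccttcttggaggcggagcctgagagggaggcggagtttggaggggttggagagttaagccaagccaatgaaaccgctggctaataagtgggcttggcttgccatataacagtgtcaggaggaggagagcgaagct
Kcns3: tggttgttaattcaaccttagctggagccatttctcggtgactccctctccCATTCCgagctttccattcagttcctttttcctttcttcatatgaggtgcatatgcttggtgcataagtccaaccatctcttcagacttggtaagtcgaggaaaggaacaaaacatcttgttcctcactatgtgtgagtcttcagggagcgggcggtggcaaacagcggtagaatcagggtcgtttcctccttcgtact
Kcnmb1: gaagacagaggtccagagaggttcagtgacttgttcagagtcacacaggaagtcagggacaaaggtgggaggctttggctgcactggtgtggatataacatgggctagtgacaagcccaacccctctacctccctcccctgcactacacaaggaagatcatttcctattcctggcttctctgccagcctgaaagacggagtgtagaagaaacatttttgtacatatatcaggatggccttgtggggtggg
CATTCC was found in the windows of 12 of the 53 channel genes (22.6%), against 14.4% of 27025 genes with such a window. The CArG box, the element bound by serum response factor in contractile genes, was in none of the 53 and in 1.62% of all genes. TTCNNNGAA, the core recognised by Stat factors, was in 4 of the 53 (Cacna1i, Kcnab1, Kcnip3 and Kcnk4, 7.55%) and in 8.13% of all genes. A gene with several annotated starts was counted once if any of its windows held the letters, and both strands were searched. A match is a description of the window.

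**Figure D1:**
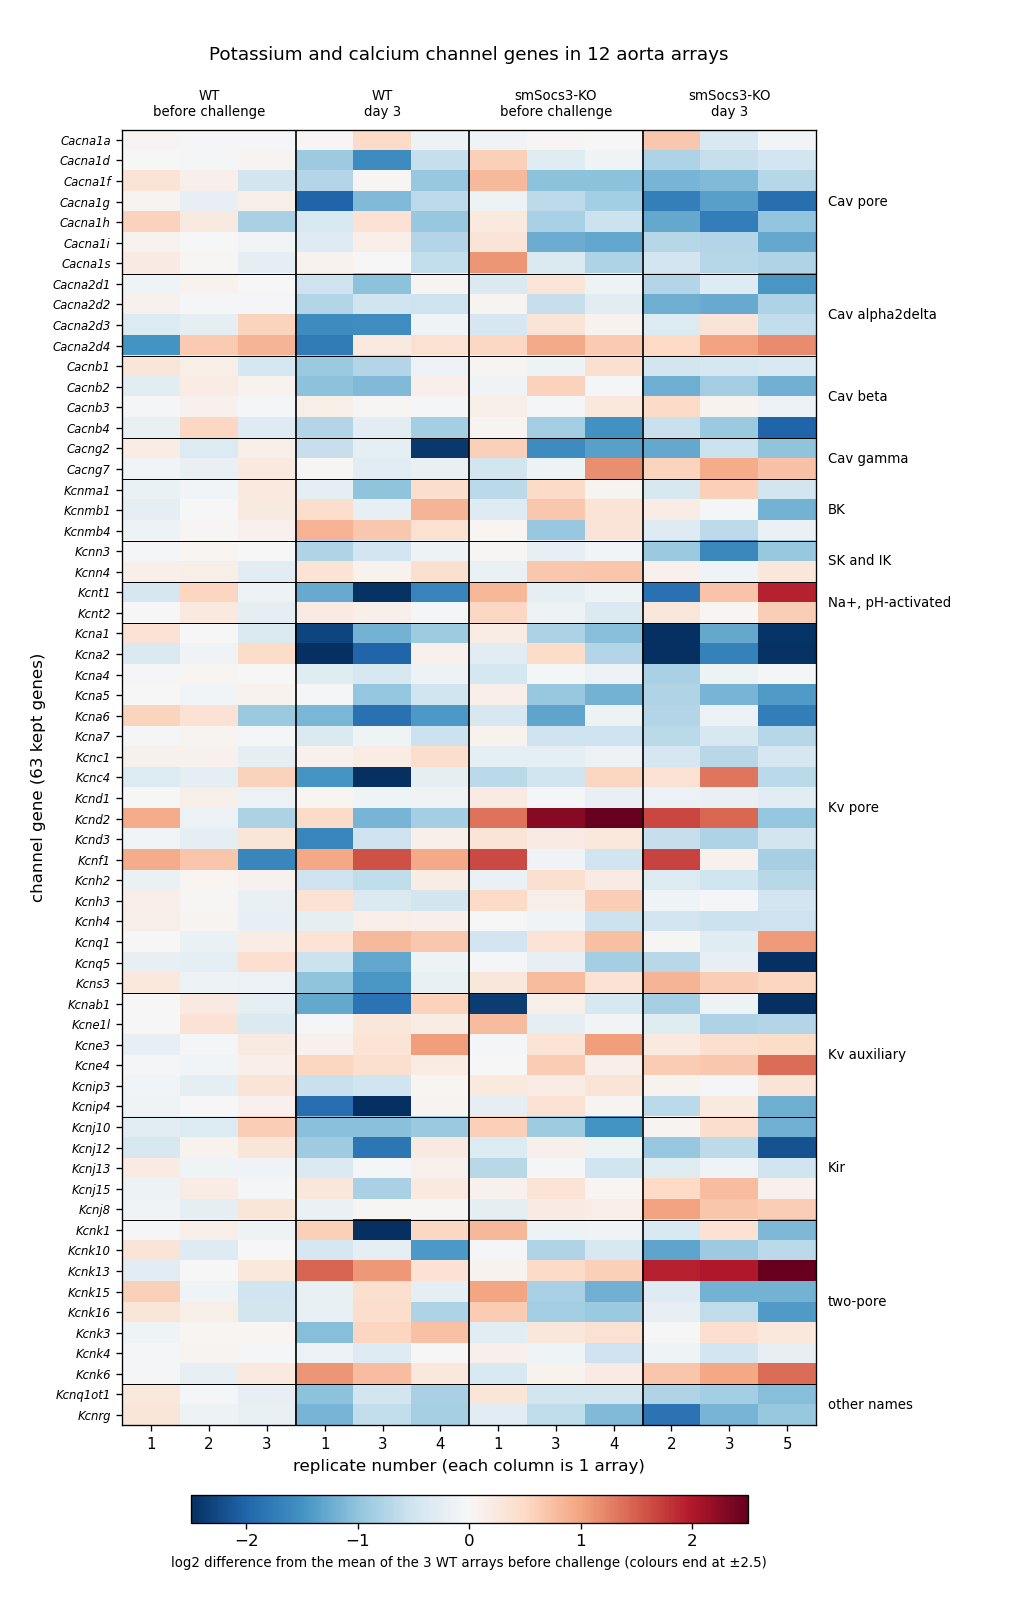
Level of 63 of the 67 kept channel genes (rows, grouped by class of subunit) on each of the 12 arrays (columns, by group and replicate number), as the log2 difference from the mean of the 3 WT arrays before challenge, with colours ending at ±2.5. Cells below that mean (blue) prevail on the day 3 columns and are paler for many genes on WT replicate 4, while Kcnk13 and Kcnk6 are above it (red) on all 6 day 3 arrays.

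After BAPN + AngII challenge, most channel genes lay below their level before challenge in both genotypes, few of them by a margin that passed the adjusted test. In WT aorta 51 of the 67 genes had a negative difference, where 51.6% of all 22761 genes did, and the median difference was -0.34 over the channel genes and -0.02 over all genes. In the aorta labelled smSocs3-KO 49 of the 67 were negative, where 55.4% of all genes were, and the medians were -0.30 and -0.06. None of the 67 passed an adjusted p under 0.05 in WT, where 4.68% of all genes did, whereas in smSocs3-KO 1 gene, Kcnk13, rose and 2 fell, Kcnn3 among them. The backgrounds for those calls were 1.71% of all genes higher and 0.734% lower. At an unadjusted p under 0.05, 15 channel genes were lower in WT and 2 higher, against 10.7% and 15.9% of all genes, and in smSocs3-KO 18 were lower and 4 higher, against 11% and 12.8%. Day 3 and earlier arrays did not overlap in 14 genes that were lower and 7 that were higher in WT (14.6% and 20.7% of all genes), and in 18 lower and 3 higher in smSocs3-KO (14% and 14.1%). The 11 genes that were not above background on every array take part in these counts. They could pass the filter through the group in which they were brighter, and among the other 56 genes the counts at an unadjusted p under 0.05 were 13 lower and 2 higher in WT and 17 lower and 4 higher in smSocs3-KO.

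By sign, 41 of the 67 genes were lower at day 3 in both genotypes, against 41.9% of all genes, and 8 were higher in both, against 34.8%. These signs are those of the brightest probe, and of 26 genes with several kept probes 8 in WT and 11 in smSocs3-KO had probes of opposite sign. The responses share no arrays between genotypes, but both come from 1 fit with 1 estimate of the spread for each gene. A gene with a small estimate therefore passes more easily in both. Lower at an unadjusted p under 0.05 in both were 8 genes, among them Cacna1d, Cacna1g, Cacna2d2, Kcna1, Kcna2, Kcnq1ot1 and Kcnrg, that is 11.9% of the channel genes against 4.61% of all genes. Of the 8, 7 were above background on all 12 arrays. Kcna2 was not, and it was kept through WT before challenge alone, so its fall in WT is not a result. Kcnk13 and Kcnk6 were higher in both at that level, which is 2.99% of the channel genes against 7.0% of all genes. The WT counts moved with 1 array. Without WT replicate 4 at day 3, 13 channel genes were lower and 2 higher at the adjusted threshold in WT, when 15.9% of all genes passed in either direction. The 13 included Cacna1d, Cacna1g, Cacna2d3, Cacnb1, Cacnb2, Kcna1, Kcna2, Kcnc4, Kcnd3, Kcnip4 and Kcns3, and the 2 were Kcnk13 and Kcnk6. Of 10 cell cycle genes 8 were measured. In the fit of all 12 arrays all 8 rose in WT, where 51.6% of all genes had a negative difference. Cdk1 alone was called in smSocs3-KO at the adjusted threshold, where 2.45% of all genes were called in either direction. The median difference of the 8 was 4.44 in WT and 2.43 in smSocs3-KO, and their part in the channel values was not tested. The omission of WT replicate 4 at day 3 also changed the shared estimate of the spread. The smSocs3-KO response then had 6 lower genes (Cacna1g, Cacna2d2, Cacnb2, Kcna2 and Kcnn3 among them) and 3 higher ones (Kcnj8, Kcnk13 and Kcnk6), against 8.43% of all genes in either direction.

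**Figure D2:**
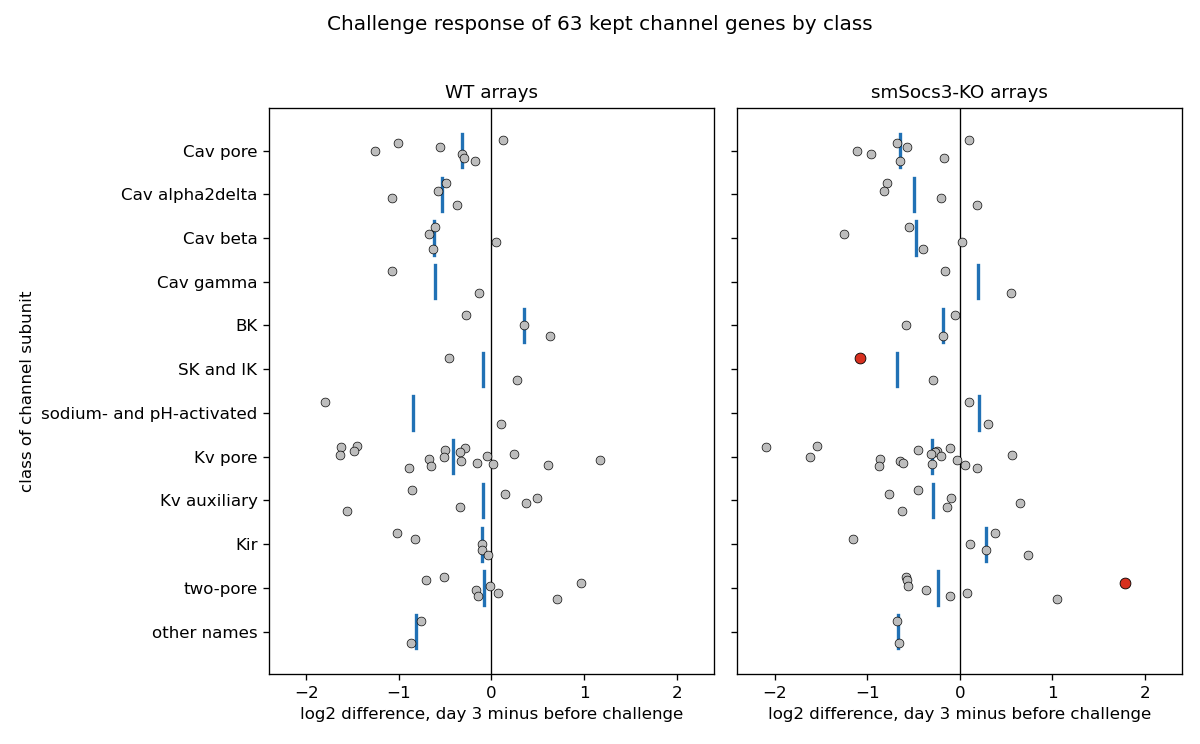
Challenge response of 63 of the 67 kept channel genes (points, log2 difference of day 3 minus before challenge on the x axis) by class of subunit (y axis), for WT at the left and smSocs3-KO at the right. Red points passed an adjusted p under 0.05, blue bars are medians of the points of a class, and the 4 alpha2delta genes have medians of -0.54 and -0.49.

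Among the calcium channel pores, 7 of 10 genes were kept and 6 of the 7 were lower at day 3 in each genotype. Cacna1g, which encodes the T-type channel Cav3.1, read 0.35, 0.07 and 0.43 on the WT arrays before challenge, -1.72, -0.82 and -0.36 on WT arrays at day 3, 0.16, -0.36 and -0.56 on smSocs3-KO arrays before challenge and -1.42, -1.08 and -1.61 on smSocs3-KO arrays at day 3. Day 3 arrays lay below the earlier ones in both genotypes without overlap. The difference was -1.25 (SE 0.32, adjusted p = 0.0510) in WT and -1.11 (SE 0.32, adjusted p = 0.0844) in smSocs3-KO, and its other probe gave -1.20 and -0.80. The WT value passed the adjusted threshold when the kept probes of a gene were averaged (adjusted p = 0.0352) or with slide as a block (adjusted p = 0.0359). All WT arrays were on slide 1, so the slide block left the WT difference as it was and changed only the shared estimate of the spread. Cacna1d, the L-type pore Cav1.3 of pacemaker and endocrine cells, read -0.68, -0.72 and -0.59 on the WT arrays before challenge, -1.57, -2.23 and -1.23 on WT arrays at day 3, -0.06, -0.97 and -0.74 on smSocs3-KO arrays before challenge and -1.43, -1.24 and -1.14 on smSocs3-KO arrays at day 3. It showed the same separation of day 3 from earlier arrays, with differences of -1.01 (SE 0.28, adjusted p = 0.0592) in WT and -0.68 (SE 0.28, adjusted p = 0.174) in smSocs3-KO. Cacna1h, the T-type pore Cav3.2, read -0.15, -0.51 and -1.55 on the WT arrays before challenge, -1.12, -0.38 and -1.68 on WT arrays at day 3, -0.49, -1.56 and -1.27 on smSocs3-KO arrays before challenge and -2.01, -2.47 and -1.72 on smSocs3-KO arrays at day 3. The WT groups overlapped and those of smSocs3-KO did not, with differences of -0.32 (SE 0.43, adjusted p = 0.659) and -0.96 (SE 0.43, adjusted p = 0.207). Cacna1a, Cacna1f, Cacna1i and Cacna1s, pores best known from nerve, retina and skeletal muscle, had differences between -0.55 and 0.13 in WT and between -0.64 and 0.09 in smSocs3-KO, none with an unadjusted p under 0.05.

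Cacna1c, for which only part of the arrays give a level above background, read -3.36, -3.48 and -4.77 in WT before challenge, -3.94, -4.19 and -4.98 in WT at day 3, -3.92, -3.86 and -3.61 in smSocs3-KO before challenge and -4.11, -4.98 and -4.01 in smSocs3-KO at day 3. It was well above background on 2, 1, 2 and 2 of the 3 arrays of these groups, and it was not tested. The dim signal of 1 probe gives no comparison with the level of other channels.

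The auxiliary subunits of calcium channels were mostly lower at day 3. All 4 alpha2delta genes were negative in WT and 3 of 4 in smSocs3-KO, with medians of -0.54 and -0.49. Cacna2d1, the alpha2delta subunit of vascular L-type channels, read 2.98, 3.17 and 3.08 on the WT arrays before challenge, 2.56, 2.05 and 3.14 on WT arrays at day 3, 2.72, 3.38 and 2.96 on smSocs3-KO arrays before challenge and 2.33, 2.75 and 1.63 on smSocs3-KO arrays at day 3. The day 3 and earlier arrays overlapped in both genotypes. In smSocs3-KO replicate 5 at day 3 was the lowest of all 12, and in WT replicate 4 at day 3 was as high as the arrays before challenge. The differences were -0.49 (SE 0.33, adjusted p = 0.353) in WT and -0.78 (SE 0.33, adjusted p = 0.182) in smSocs3-KO. Cacna2d2, a second alpha2delta gene, read -1.46, -1.62 and -1.61 on the WT arrays before challenge, -2.29, -2.06 and -2.08 on WT arrays at day 3, -1.50, -2.14 and -1.85 on smSocs3-KO arrays before challenge and -2.78, -2.81 and -2.34 on smSocs3-KO arrays at day 3. Its day 3 arrays lay below the earlier ones in both genotypes, with differences of -0.58 (SE 0.20, adjusted p = 0.0973) and -0.82 (SE 0.20, adjusted p = 0.0562). Among the beta subunits, Cacnb2, which assembles with Cav1.2 in heart and vessel, read -1.28, -0.84 and -0.94 on the WT arrays before challenge, -2.04, -2.13 and -0.89 on WT arrays at day 3, -1.10, -0.44 and -1.05 on smSocs3-KO arrays before challenge and -2.24, -1.89 and -2.23 on smSocs3-KO arrays at day 3. The smSocs3-KO groups were separate and the WT groups overlapped through replicate 4. The differences were -0.67 (SE 0.32, adjusted p = 0.206) and -1.25 (SE 0.32, adjusted p = 0.0629), and its other probe gave -1.01 and -1.35. The smSocs3-KO value passed the adjusted threshold after normexp background correction (adjusted p = 0.0373) and with the kept probes averaged (adjusted p = 0.0283). It did not pass without the filter, with only the arrays compared or with slide as a block. Nor did it pass within 1 slide, with the replicate block or with an ordinary linear model. Cacnb3, the other beta subunit found in smooth muscle, read 0.72, 0.87 and 0.71 on the WT arrays before challenge, 0.91, 0.79 and 0.74 on WT arrays at day 3, 0.90, 0.73 and 1.02 on smSocs3-KO arrays before challenge and 1.24, 0.85 and 0.63 on smSocs3-KO arrays at day 3. All 12 values lay between 0.63 and 1.24 and the groups overlapped, with 95% confidence intervals of -0.33 to 0.44 for the WT response and -0.36 to 0.40 for the smSocs3-KO response. Cacng7, named as a gamma subunit and better known as a partner of glutamate receptors, read -0.17, -0.28 and 0.15 on the WT arrays before challenge, -0.07, -0.36 and -0.28 on WT arrays at day 3, -0.56, -0.23 and 1.06 on smSocs3-KO arrays before challenge and 0.46, 0.82 and 0.64 on smSocs3-KO arrays at day 3. Its genotype groups were separate at day 3, with a difference of 0.88 (SE 0.34, adjusted p = 0.248), and the responses were -0.14 in WT and 0.55 in smSocs3-KO. Its other probe had the opposite sign in smSocs3-KO (-0.33 against 0.55), so its direction is uncertain.

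BK channels open with depolarisation and calcium, and the beta1 subunit Kcnmb1 raises their sensitivity to calcium in smooth muscle. The Kcnmb1 probe lies at chr11:33870457-33870516 in build mm9. Kcnmb1 read 2.69, 2.93 and 3.14 on the WT arrays before challenge, 3.35, 2.71 and 3.76 on WT arrays at day 3, 2.59, 3.59 and 3.27 on smSocs3-KO arrays before challenge and 3.11, 2.88 and 1.73 on smSocs3-KO arrays at day 3. WT arrays at day 3 were spread around the earlier ones, and in smSocs3-KO the lowest array was replicate 5 at day 3. The groups overlapped in every comparison. The difference was 0.36 (SE 0.39, adjusted p = 0.586) in WT, with a 95% confidence interval of -0.51 to 1.22, and -0.58 (SE 0.39, adjusted p = 0.385) in smSocs3-KO, with an interval of -1.44 to 0.29. At day 3 the arrays labelled smSocs3-KO differed from WT by -0.71 (SE 0.39, adjusted p = 0.407), and the interaction was -0.93 (SE 0.55, adjusted p = 0.970). Changes of over 2-fold in either direction are inside some of these intervals, so these arrays do not bound the change of Kcnmb1 closely.

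Kcnma1, the pore of the BK channel, read 1.33, 1.43 and 1.73 on the WT arrays before challenge, 1.25, 0.49 and 1.94 on WT arrays at day 3, 0.82, 1.98 and 1.56 on smSocs3-KO arrays before challenge and 1.09, 2.09 and 1.05 on smSocs3-KO arrays at day 3 on its brightest probe. The groups overlapped, and the differences were -0.27 (SE 0.41, adjusted p = 0.700) in WT and -0.05 (SE 0.41, adjusted p = 0.952) in smSocs3-KO. Its 3 probes were not alike, since the other 2 gave -0.71 and -0.55 in WT and -0.65 and -0.66 in smSocs3-KO. Kcnmb4, the BK subunit of neurons, was above background on 8 of the 12 arrays and had differences of 0.64 in WT and -0.18 in smSocs3-KO. Kcnmb2 and Kcnmb3 were not kept.

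Small- and intermediate-conductance channels are opened by calcium alone and, in arteries, are best known from the endothelium, where they carry hyperpolarisation to the muscle. Kcnn3, the small-conductance channel SK3, fell in smSocs3-KO and was 1 of the 3 called genes. Its probe lies at chr3:89476303-89476362 in build mm9. It read -2.05, -1.97 and -2.01 on the WT arrays before challenge, -2.76, -2.50 and -2.13 on WT arrays at day 3, -1.99, -2.21 and -2.08 on smSocs3-KO arrays before challenge and -2.94, -3.62 and -2.95 on smSocs3-KO arrays at day 3. The 3 smSocs3-KO arrays at day 3 were lower than the other 9, and the WT arrays at day 3 were just below those before challenge. The difference was -1.08 (SE 0.22, adjusted p = 0.0379) in smSocs3-KO, a 2.11-fold fall, and -0.45 (SE 0.22, adjusted p = 0.208) in WT. The smSocs3-KO call was lost within slide 2 alone, where the difference was -1.02 (adjusted p = 0.148), and when any 1 array of WT or smSocs3-KO before challenge, or of smSocs3-KO at day 3, was left out, with adjusted p up to 0.113. Kcnn4, the intermediate-conductance channel, read -0.82, -0.79 and -1.22 on the WT arrays before challenge, -0.60, -0.86 and -0.54 on WT arrays at day 3, -1.12, -0.27 and -0.26 on smSocs3-KO arrays before challenge and -0.83, -1.02 and -0.66 on smSocs3-KO arrays at day 3. It had overlapping groups and differences of 0.28 (SE 0.24, adjusted p = 0.488) and -0.29 (SE 0.24, adjusted p = 0.476). All 7 endothelial markers were measured, with summed levels of 52.4 to 54.8 before and 64.6 to 73.8 after challenge on WT arrays, and 44.3 to 55.4 before and 48.7 to 64.2 after challenge on smSocs3-KO arrays. None of the 7 was lower at an unadjusted p under 0.05 in either challenge response, against 10.7% of all genes in WT and 11% in smSocs3-KO. Their part in the fall of Kcnn3 was not tested.

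**Figure D3:**
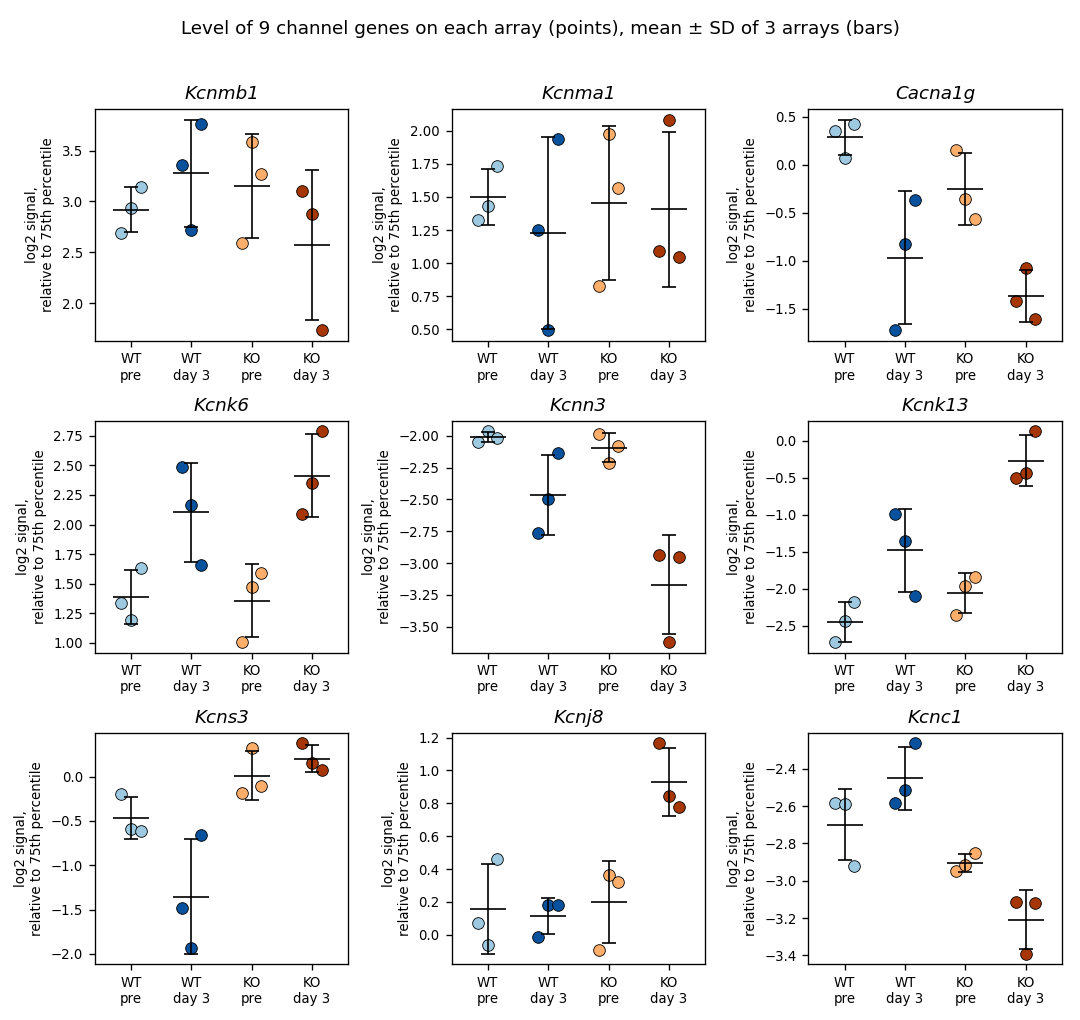
Level of 9 channel genes on each array (points, y axis in log2 signal relative to the array's 75th percentile), for WT and smSocs3-KO (KO) before challenge (pre) and at day 3, with the mean and SD of 3 arrays. Kcnk13 is highest and Kcnn3 lowest on the 3 smSocs3-KO arrays at day 3, and WT replicate 4, the rightmost of its group, sits near the arrays before challenge for Kcnn3, Kcnk13 and Kcnk6.

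Kv channels, which open on depolarisation, made up the largest class, with 22 of 40 pore genes kept and 18 of the 22 lower at day 3 in each genotype. Their median differences were -0.49 in WT and -0.30 in smSocs3-KO. Kcns3 encodes Kv9.3, a subunit that is silent alone and modifies other Kv pores, and is described with the genotype differences below.

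Kv1 channels form another group of delayed rectifiers and A-type channels, and their larger differences were negative. Kcna1 (Kv1.1) read -0.14, -0.49 and -0.85 on the WT arrays before challenge, -2.79, -1.67 and -1.37 on WT arrays at day 3, -0.30, -1.27 and -1.56 on smSocs3-KO arrays before challenge and -3.05, -1.77 and -2.94 on smSocs3-KO arrays at day 3. Day 3 and earlier arrays did not overlap in either genotype, and the differences were -1.45 (SE 0.46, adjusted p = 0.0842) in WT and -1.54 (SE 0.46, adjusted p = 0.0917) in smSocs3-KO. Kcna2 (Kv1.2) read -4.07, -3.80 and -3.25 on the WT arrays before challenge, -6.68, -5.71 and -3.61 on WT arrays at day 3, -3.97, -3.25 and -4.45 on smSocs3-KO arrays before challenge and -6.37, -5.39 and -6.17 on smSocs3-KO arrays at day 3. It was well above background on 3, 1, 2 and 0 of the 3 arrays of these groups in that order, so it was kept through WT before challenge alone and the smSocs3-KO level at day 3 is only a bound. In smSocs3-KO the level before challenge was at least 1.92-fold that at day 3, with an adjusted p of 0.0983 from the fit, which includes signal near background. In WT the difference was -1.63 (SE 0.65, adjusted p = 0.141), and replicate 4 at day 3 was within the range before challenge. Since Kcna2 passed the filter only through WT before challenge, its higher WT level in that group is not a result. Kcna6 (Kv1.6) read 1.50, 1.31 and 0.01 on the WT arrays before challenge, -0.20, -0.93 and -0.49 on WT arrays at day 3, 0.53, -0.38 and 0.81 on smSocs3-KO arrays before challenge and 0.20, 0.80 and -0.78 on smSocs3-KO arrays at day 3. Its WT groups did not overlap, with a difference of -1.48 (SE 0.49, adjusted p = 0.0917), while a second probe gave -0.03, and the smSocs3-KO groups overlapped (-0.25, SE 0.49, adjusted p = 0.768).

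Kcna5 (Kv1.5), the Kv1 pore most often described in vascular muscle, read -2.81, -2.87 and -2.72 on the WT arrays before challenge, -2.85, -3.77 and -3.29 on WT arrays at day 3, -2.63, -3.75 and -3.99 on smSocs3-KO arrays before challenge and -3.56, -3.96 and -4.21 on smSocs3-KO arrays at day 3. The groups overlapped, with differences of -0.51 (SE 0.34, adjusted p = 0.368) and -0.45 (SE 0.34, adjusted p = 0.438), and a dimmer probe above background on 4 arrays gave the opposite sign. Kcna4 (Kv1.4) read 1.66, 1.73 and 1.68 on the WT arrays before challenge, 1.38, 1.28 and 1.56 on WT arrays at day 3, 1.25, 1.64 and 1.55 on smSocs3-KO arrays before challenge and 0.88, 1.56 and 1.66 on smSocs3-KO arrays at day 3. Its WT arrays at day 3 lay below those before challenge by a small margin (-0.28, SE 0.21, adjusted p = 0.414), and the smSocs3-KO groups overlapped (-0.11, SE 0.21, adjusted p = 0.764). Kcnab1, the beta subunit that speeds the inactivation of Kv1 channels, read 3.77, 3.97 and 3.52 on the WT arrays before challenge, 2.47, 1.90 and 4.32 on WT arrays at day 3, 1.39, 3.91 and 3.34 on smSocs3-KO arrays before challenge and 2.92, 3.63 and 0.73 on smSocs3-KO arrays at day 3. Arrays of one group differed by more than the groups, from 1.39 to 3.91 in smSocs3-KO before challenge and from 0.73 to 3.63 at day 3, so that the SE of its differences was 0.85, and no difference was detectable on these arrays.

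Kv7 channels are open near the resting potential and hold arterial muscle relaxed. Kcnq5 (Kv7.5) read -3.03, -3.05 and -2.42 on the WT arrays before challenge, -3.37, -4.13 and -2.96 on WT arrays at day 3, -2.88, -3.04 and -3.68 on smSocs3-KO arrays before challenge and -3.53, -3.04 and -5.63 on smSocs3-KO arrays at day 3 and was above background on 10 of the 12 arrays. It overlapped in both genotypes, with differences of -0.65 (SE 0.57, adjusted p = 0.489) and -0.87 (SE 0.57, adjusted p = 0.371). Kcnq1 (Kv7.1) read -2.10, -2.26 and -1.91 on the WT arrays before challenge, -1.74, -1.28 and -1.42 on WT arrays at day 3, -2.58, -1.75 and -1.34 on smSocs3-KO arrays before challenge and -2.07, -2.40 and -1.02 on smSocs3-KO arrays at day 3. It was higher at day 3 without overlap in WT (0.61, SE 0.37, adjusted p = 0.311) and overlapped in smSocs3-KO (0.06, SE 0.37, adjusted p = 0.935). Kcne4, an auxiliary subunit of Kv channels, read 1.07, 1.05 and 1.24 on the WT arrays before challenge, 1.65, 1.52 and 1.30 on WT arrays at day 3, 1.10, 1.75 and 1.24 on smSocs3-KO arrays before challenge and 1.75, 1.79 and 2.52 on smSocs3-KO arrays at day 3. The WT arrays at day 3 were above the earlier ones by 0.37 (SE 0.24, adjusted p = 0.342), and in smSocs3-KO the groups met at 1.75, with a difference of 0.65 (SE 0.24, adjusted p = 0.144) that had an unadjusted p under 0.05.

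Of the remaining Kv genes, Kcnd3 (Kv4.3, the pore of a transient outward current) had differences of -0.67 in WT and -0.86 in smSocs3-KO. Kcnip4, which binds Kv4 pores, had -1.55 and -0.63, and Kcnh2, the delayed rectifier of the heart, -0.33 and -0.65. WT replicate 4 at day 3 read 2.69 for Kcnd3 and 1.29 for Kcnip4, against means before challenge of 2.55 and 1.22. The negative WT values of both genes rest on replicates 1 and 3. Kcnrg, a soluble protein that inhibits the assembly of Kv channels, read -1.53, -1.96 and -2.02 on the WT arrays before challenge, -3.00, -2.45 and -2.67 on WT arrays at day 3, -2.11, -2.47 and -2.94 on smSocs3-KO arrays before challenge and -3.69, -3.00 and -2.79 on smSocs3-KO arrays at day 3. The difference was -0.87 (SE 0.29, adjusted p = 0.0910) in WT, without overlap, and -0.66 (SE 0.29, adjusted p = 0.196) in smSocs3-KO, where the groups overlapped. Of the other members of these classes, Kcna7, Kcne3, Kcnf1, Kcnip3, Kcnh3, Kcnh4, Kcnd1, Kcnt2, Cacnb4 and Cacng2 had WT differences between -1.08 and 1.17 and smSocs3-KO differences between -0.61 and 0.31, and of these Kcnh3 alone, in smSocs3-KO, had an unadjusted p under 0.05. Kcnq1ot1, a non-coding RNA antisense to Kcnq1 that matched the naming scheme and encodes no subunit, had differences of -0.76 (SE 0.24, adjusted p = 0.0826) and -0.68 (SE 0.24, adjusted p = 0.133).

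**Figure D4:**
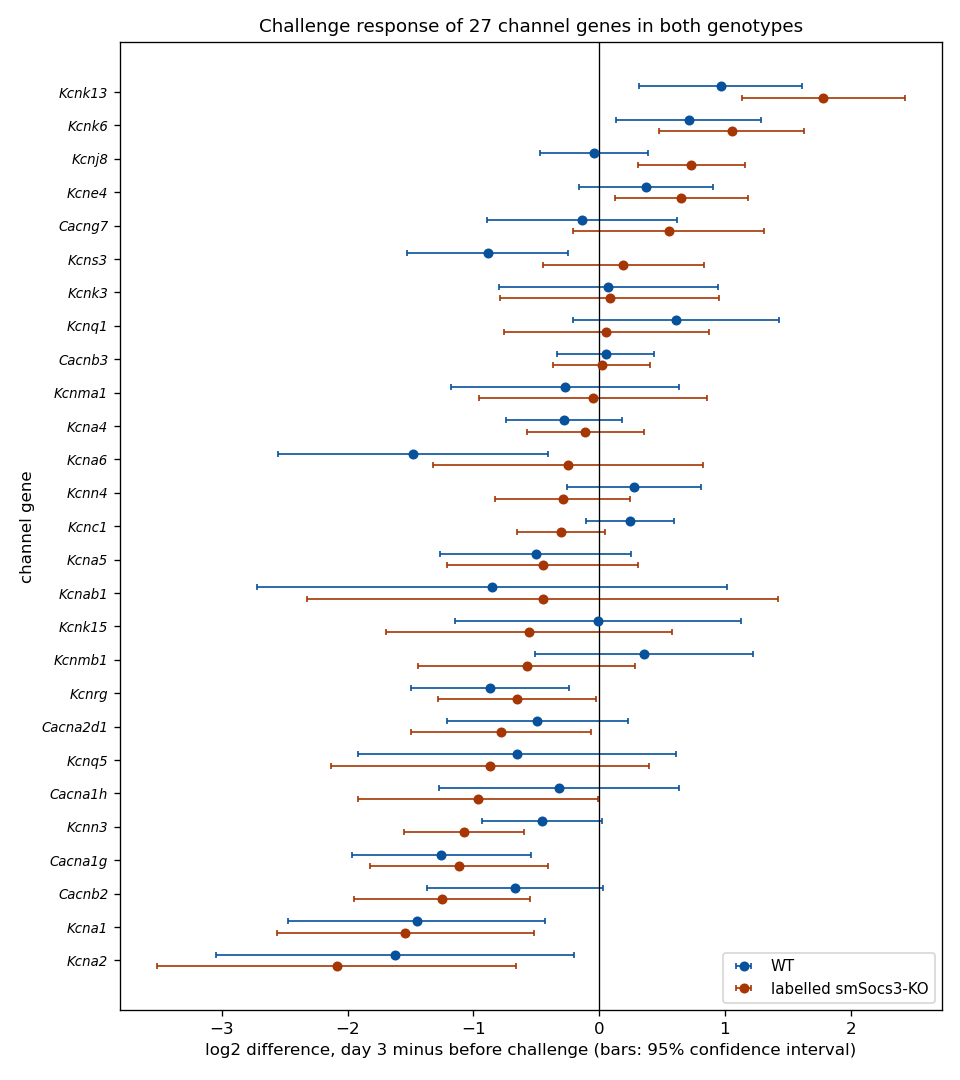
Challenge response of 27 of the 29 channel genes chosen by the naming rule given in the methods (y axis, in order of the smSocs3-KO response), as the log2 difference of day 3 minus before challenge (x axis) with its 95% confidence interval, for WT (blue) and smSocs3-KO (brown). The intervals of Kcnk13 and Kcnk6 lie above 0 and those of Cacna1g, Kcna1, Kcna2 and Kcnrg below 0 in both genotypes. Kcna2 was well above background on 6 of the 12 arrays and was kept through WT before challenge alone. The 2 intervals of each plotted gene overlap.

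Two-pore channels pass potassium at rest and are regulated by pH, lipids and signalling. The class had 8 of 14 genes kept, 5 of them lower and 3 higher at day 3 in each genotype. Kcnk13, the THIK-1 channel, rose in smSocs3-KO and was the only channel gene called higher in a challenge response. Its probe lies at chr12:101300491-101300550 in build mm9. It read -2.72, -2.43 and -2.18 on the WT arrays before challenge, -0.99, -1.35 and -2.09 on WT arrays at day 3, -2.36, -1.96 and -1.84 on smSocs3-KO arrays before challenge and -0.50, -0.44 and 0.13 on smSocs3-KO arrays at day 3. Each smSocs3-KO array at day 3 was above the other 9, and the WT arrays at day 3 were above those before challenge, narrowly so for replicate 4. The difference was 1.78 (SE 0.29, adjusted p = 0.0199) in smSocs3-KO, a 3.44-fold rise, and 0.97 (SE 0.29, adjusted p = 0.0746) in WT, and the interaction was 0.82 (SE 0.41, adjusted p = 0.957). The smSocs3-KO call was lost within slide 2, where the rise was 1.63 (adjusted p = 0.0718), and without smSocs3-KO replicate 1 (1.63, adjusted p = 0.0750) or 3 (1.83, adjusted p = 0.0567) before challenge or replicate 5 at day 3 (1.58, adjusted p = 0.0763). THIK-1 is known from microglia and other macrophages. Of 10 leukocyte markers, all measured, 6 were higher at an unadjusted p under 0.05 in WT and 6 in smSocs3-KO, against 15.9% and 12.8% of all genes. Cd14 and Cd68 rose in smSocs3-KO, with differences of 1.67 (adjusted p = 0.0408) and 2.16 (adjusted p = 0.0379). The summed level of the 10 ran from 193 to 240 before and 162 to 282 after challenge on WT arrays, and 144 to 335 before and 177 to 222 after challenge on smSocs3-KO arrays. Their part in the rise of Kcnk13 was not tested.

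Kcnk6, the TWIK-2 channel, which is present in vascular muscle and macrophages, read 1.34, 1.19 and 1.64 on the WT arrays before challenge, 2.48, 2.16 and 1.66 on WT arrays at day 3, 1.01, 1.47 and 1.59 on smSocs3-KO arrays before challenge and 2.09, 2.35 and 2.79 on smSocs3-KO arrays at day 3. Day 3 arrays were above the earlier ones without overlap in both genotypes, by 0.71 (SE 0.26, adjusted p = 0.119) in WT and 1.06 (SE 0.26, adjusted p = 0.0600) in smSocs3-KO, and neither passed the adjusted threshold. Kcnk3, the TASK-1 channel of arterial muscle, read -2.27, -2.12 and -2.12 on the WT arrays before challenge, -3.24, -1.63 and -1.44 on WT arrays at day 3, -2.43, -1.88 and -1.78 on smSocs3-KO arrays before challenge and -2.17, -1.76 and -1.90 on smSocs3-KO arrays at day 3. The groups overlapped, with differences of 0.07 (SE 0.39, adjusted p = 0.922) and 0.08 (SE 0.39, adjusted p = 0.909). Kcnk15, the TASK-5 channel, read -1.24, -1.94 and -2.32 on the WT arrays before challenge, -2.02, -1.43 and -2.08 on WT arrays at day 3, -0.85, -2.64 and -3.03 on smSocs3-KO arrays before challenge and -2.16, -3.01 and -3.02 on smSocs3-KO arrays at day 3. The smSocs3-KO arrays before challenge held the highest (replicate 1, slide 1) and the lowest (replicate 4, slide 2) of the 12 values. The responses were -0.01 and -0.56, and at day 3 the genotypes were separate, with a difference of -0.88 (SE 0.51, adjusted p = 0.429). The other 4 kept genes, Kcnk1, Kcnk4, Kcnk10 and Kcnk16, had differences between -0.70 and -0.15 in WT and between -0.58 and -0.10 in smSocs3-KO.

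In the inward rectifier class, 5 of 15 genes were kept, and all 5 had negative differences in WT against 1 of 5 in smSocs3-KO. The WT differences of Kcnj8, Kcnj13 and Kcnj15 were small, at -0.04, -0.10 and -0.10. Kept probes had opposite signs for Kcnj13 in WT and for Kcnj15 in smSocs3-KO, so these counts of signs are uncertain. Kcnj8, the pore Kir6.1 of the vascular KATP channel, read 0.07, -0.06 and 0.46 on the WT arrays before challenge, -0.01, 0.18 and 0.18 on WT arrays at day 3, -0.09, 0.36 and 0.32 on smSocs3-KO arrays before challenge and 1.17, 0.84 and 0.78 on smSocs3-KO arrays at day 3. The 3 smSocs3-KO arrays at day 3 were above all the other 9, and the WT groups overlapped. All 7 fibroblast markers were measured, and their summed level was also highest on those 3 arrays, from 1161 to 1458 against 941 to 1040 before challenge on smSocs3-KO arrays, and 891 to 1021 before and 948 to 1148 after challenge on WT arrays. Of the 7, Dpt and Pi16 were called higher on smSocs3-KO arrays at day 3 than on WT arrays, with differences of 1.99 (adjusted p = 0.0230) and 1.64 (adjusted p = 0.0467), and the part of the fibroblast markers in the level of Kcnj8 was not tested. Of 7 adipocyte markers 6 were measured, none with an unadjusted p under 0.05 in a comparison, and their summed level overlapped between all groups. Their median difference was -0.09 in WT, 0.79 in smSocs3-KO, 0.73 between genotypes at day 3 and 1.01 for the interaction. The part of the adipocyte markers in the level of Kcnj8 was not tested. For Kcnj8 the difference was 0.73 (SE 0.19, adjusted p = 0.0689) in smSocs3-KO, -0.04 (SE 0.19, adjusted p = 0.911) in WT, 0.81 (SE 0.19, adjusted p = 0.0768) between genotypes at day 3 and 0.77 (SE 0.27, adjusted p = 0.897) for the interaction, which had an unadjusted p under 0.05. Abcc9, which encodes the regulatory subunit SUR2 that pairs with Kir6.1, had differences of -0.63 in WT (adjusted p = 0.115) and -0.0038 in smSocs3-KO (adjusted p = 0.993). Kcnj12, a strong inward rectifier, gave -0.82 in WT and -1.15 in smSocs3-KO, the latter without overlap and with an unadjusted p under 0.05, while Kcnj10, Kcnj13 and Kcnj15 lay between -1.01 and -0.10 in WT and between 0.11 and 0.38 in smSocs3-KO. Kcnj2, the strong inward rectifier Kir2.1 of small arteries, was above background on no array, and Kcnj11 (Kir6.2) on 3.

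Before challenge, no channel gene passed the adjusted threshold between the genotypes, where 0.0264% of all genes did, and at an unadjusted p under 0.05 there were 1 higher (Kcnd2) and 2 lower (Kcnrg among them), against 1.88% and 2.51% of all genes. Among the 56 genes above background on all arrays these counts were 0 and 1. The median difference was -0.03 over the channel genes. Groups were separate in 2 genes that were higher in smSocs3-KO and 3 that were lower (6.48% and 4.6% of all genes). Kcnd2, the Kv4.2 pore, was above background on 1, 0, 3 and 2 of the 3 arrays of the groups, so it was kept through smSocs3-KO before challenge alone, and its higher level in that group is not a result. The arrays of smSocs3-KO before challenge were divided by slide. Replicate 1, on slide 1, lay at least 1 log2 unit from the mean of replicates 3 and 4, on slide 2, in 16 of the 67 channel genes, above it in 13 and below it in 3.

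At day 3, Kcns3 was higher on the smSocs3-KO arrays and was the only channel gene called between genotypes, where 0.958% of all genes were called higher and 1.11% in either direction. Its probe lies at chr12:11097716-11097775 in build mm9. It read -0.20, -0.59 and -0.61 on the WT arrays before challenge, -1.48, -1.93 and -0.66 on WT arrays at day 3, -0.18, 0.33 and -0.11 on smSocs3-KO arrays before challenge and 0.38, 0.15 and 0.08 on smSocs3-KO arrays at day 3. All 6 smSocs3-KO arrays lay above all 6 WT arrays, and the WT arrays at day 3 were the lowest. The difference at day 3 was 1.56 (SE 0.29, adjusted p = 0.0339), which is 2.94-fold, the difference before challenge 0.48 (SE 0.29), the WT response -0.89 (SE 0.29, adjusted p = 0.0905), the smSocs3-KO response 0.19 (SE 0.29, adjusted p = 0.699) and the interaction 1.08 (SE 0.41, adjusted p = 0.915). With slide as a block the day 3 difference was 1.26 (adjusted p = 0.290), and without WT replicate 4 it was 1.91 (adjusted p = 0.00897). The slide term came only from smSocs3-KO replicate 1 before challenge against replicates 3 and 4, so it cannot separate slide from genotype at day 3. All 5 mesothelial markers were measured, and their summed level ran from 3.64 to 21.6 before and 2.55 to 13.2 after challenge on WT arrays, and 26.0 to 59.4 before and 28.8 to 38.3 after challenge on smSocs3-KO arrays. It separated the genotypes as Kcns3 did, and its part in that difference was not tested. The call for Kcns3 was lost without any 1 of the 3 smSocs3-KO arrays at day 3, of the 3 WT arrays before challenge or of WT replicates 1 and 3 at day 3, with adjusted p from 0.0561 to 0.109.

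At an unadjusted p under 0.05, 7 channel genes were higher (Cacng7, Kcnc4, Kcnip3, Kcnj8, Kcnk13, Kcns3 and Kcnt1) and 7 lower (Cacna1h, Cacna2d2, Kcnc1, Kcne1l, Kcnh4, Kcnmb4 and Kcnn3) on the smSocs3-KO arrays at day 3, against 7.77% and 8.42% of all genes. The groups were separate in 6 higher and 9 lower genes (7.86% and 12.7% of all genes). The median was -0.16 with 42 of 67 genes lower, and with slide as a block it was 0.16 with 27 lower. That slide term came only from smSocs3-KO replicate 1 before challenge against replicates 3 and 4. It therefore cannot separate slide from genotype at day 3, and the direction over the class depends on that 1 array. Kcnt1, a sodium-activated channel, was above background on none of the 3 WT arrays at day 3 and on 2 of the 3 smSocs3-KO arrays. It read -5.04, -6.25 and -5.41 on the WT arrays and -5.63, -3.06 and -1.84 on the smSocs3-KO arrays, so that the groups overlapped. From the group means, the bound was 1.70-fold higher on the smSocs3-KO arrays (adjusted p = 0.231 from the limma fit). That bound takes no account of the spread between arrays. Its WT level before challenge was at least 1.42-fold that at day 3 (adjusted p = 0.168 from the limma fit). Kcnt1 passed the filter only through the WT and smSocs3-KO groups before challenge. Its higher WT level before challenge is therefore not a result. Kcnc1 (Kv3.1) read -2.59, -2.59 and -2.92 on the WT arrays before challenge, -2.58, -2.51 and -2.26 on WT arrays at day 3, -2.95, -2.92 and -2.85 on smSocs3-KO arrays before challenge and -3.12, -3.39 and -3.12 on smSocs3-KO arrays at day 3. The genotypes did not overlap at day 3, with a difference of -0.76 (SE 0.16, adjusted p = 0.0525), and at day 3 all 3 WT arrays were above their arrays before challenge, by a margin of only 0.0035, and all 3 smSocs3-KO arrays below theirs.

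No gene of the 22761 passed the adjusted threshold for the genotype by challenge interaction by limma. At an unadjusted p under 0.05 there were 3 channel genes with a more positive response in smSocs3-KO (Kcnc4, Kcnj8 and Kcns3) and 2 with a more negative one (Kcnc1 and Kcne1l), against 2.68% and 2.65% of all genes. The medians were 0.04 over the channel genes and -0.06 over all genes. A difference in response between the genotypes was therefore not shown for any channel gene, including Kcnk13 and Kcnn3, which were called in smSocs3-KO and not in WT.

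Other genes that handle calcium or set the membrane potential in smooth muscle were counted from lists of known members. At an unadjusted p under 0.05 by limma, 10.7% of all genes were lower in WT and 11% in smSocs3-KO, and 15.9% and 12.8% were higher. The lists are short, and no count was tested against these shares. For the calcium stores, 13 of 14 genes of release and uptake were measured, none passed the adjusted threshold in a challenge response, and 2 were lower at an unadjusted p under 0.05 in WT (Itpr1 and Ryr3) and 3 in smSocs3-KO (Itpr1, Jph2 and Ryr2). Itpr1, the IP3 receptor, had differences of -0.68 in WT (adjusted p = 0.175) and -1.07 in smSocs3-KO (adjusted p = 0.0767). Of 4 calcium extrusion genes 1 was lower at that level in WT and 2 in smSocs3-KO, of 5 store-operated entry genes 1 and 0, of 9 measured TRP and mechanosensitive channels 1 and 2, of 5 genes of the nitric oxide receptor pathway 1 and 3, of 3 measured inhibitors of calcium channels 0 and 2, and of 6 measured partners of Kv and BK channels 2 and 2. None of these lists held a gene that was higher at that level in a challenge response. Among the 3 measured chloride channel genes, Ano1, the calcium-activated chloride channel of smooth muscle, had differences of 0.57 in WT (adjusted p = 0.161) and -0.86 in smSocs3-KO (adjusted p = 0.0767), and it was lower on the smSocs3-KO arrays at day 3, with a difference of -1.36 (adjusted p = 0.0289). Of the 14 contractile markers, 3 were lower at an unadjusted p under 0.05 in WT and 7 in smSocs3-KO, and none passed the adjusted threshold. Myh11, smooth muscle myosin, had differences of -0.996 and -1.18, and the part of the contractile markers in the lower channel genes was not tested.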

How the data were processed

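Aortic RNA of 12 samples was measured on one-colour Agilent SurePrint G3 mouse arrays, 3 arrays for each of 4 groups. For each array, scanner output was deposited whose processed signal is a background-subtracted intensity from Feature Extraction (version 10.7.1.1 in the file headers, 9.5.1.1 in the submitters' processing notes). A table of intensities on a linear scale that the authors had normalized was also deposited. It was used here, after log2, only as an alternative. From the intensities, log2 of the processed signal minus its 75th percentile over all probes of the array was computed, control spots and spots marked as outliers were left out, and spots of 1 probe were averaged. The filter kept 32283 of 55681 probes, those that Agilent's software called well above background on every array of 1 or more groups. Each of the 22761 genes was represented by its brightest kept probe. Differences were fitted with limma (version 3.58.1, R 4.3.3) on 4 group means without covariates, and p-values were adjusted by the Benjamini-Hochberg method with a threshold of 0.05. Confidence intervals at the 95% level come from the same fit. Nothing in the labels says that replicates of a group came from separate animals, and the p-values measure the spread between these arrays. With 3 arrays a group, the number of arrays limits the precision. Where a group lay below background on all its arrays, the fold was computed as a bound from the lowest signal well above background.

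Channel genes and the lists of other genes were chosen with earlier results of these data known. Values on every array are given for a list of vascular channel genes, for genes past the adjusted threshold or past an unadjusted p under 0.01 and 4-fold, and for the 3 largest rises and falls without overlap in each comparison, 29 genes in all. Of the 67 kept genes 4, 2 of these 29 among them, take part in every count and are not reported here one by one. Other genes given with values, Cacna1d and Cacna2d2 among them, were chosen after their values were seen. Alternatives covered background correction, normalization, the filter, the use of several probes, slide and replicate blocks, variance models and leaving out arrays. Promoter windows were taken from RefSeq on build GRCm38.p6, and probe positions are those of the array design on mm9. Cacna1c and the other 53 genes without a kept probe were not tested.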

Additional observations from a re-analysis of the deposited data

Results flagged for a closer look

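The 2 genotypes moved in opposite directions for Kcnc1, the Kv3.1 pore. All 3 WT arrays at day 3 lay above the 3 before challenge, the nearest by 0.0035 on the log2 scale, and all 3 smSocs3-KO arrays at day 3 lay below their arrays before challenge. The responses were 0.25 in WT and -0.31 in smSocs3-KO on the log2 scale, neither with an unadjusted p under 0.05. The difference between the responses was -0.55 (adjusted p = 0.925 by limma).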

How the results depend on the processing

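The calls rest on few arrays and the counts moved with the processing. With slide as a block, the slide term came only from smSocs3-KO replicate 1 before challenge against replicates 3 and 4. That block left the WT differences as they were and changed only the estimate of the spread for them. The signs of Kcnk13 and Kcnn3 in smSocs3-KO and of Kcns3 between genotypes at day 3 were kept in every alternative run, and of 27 alternatives (26 for Kcns3) Kcnk13 was called in 20, Kcnn3 in 10 and Kcns3 in 12. In WT no channel gene was called lower or higher by default, and the number called lower was 1 with the kept probes averaged, 2 with probes above background on all 12 arrays, 3 with slide as a block, 4 with slide as a random block and 3 with trended and robust variances, where 4.53%, 6.58%, 10.4%, 9.34% and 8.1% of all genes were called in either direction, against 4.68% by default. In smSocs3-KO the number called lower, 2 by default, was 4 after normexp correction, 1 after quantile normalization, 1 in the authors' table, and 0 without the filter, with only the arrays compared, with slide as a block, within 1 slide, with the replicate block and with an ordinary linear model. Of all genes 2.45% were called by default, 3.63% after normexp correction, 1.95% after quantile normalization and in the authors' table, and from 0.00879% to 1.75% under the 6 alternatives that left 0. The number called higher there, 1 by default, was 2 after normexp correction and with trended variances, and 0 with slide as a block, within 1 slide, with the replicate block and with the ordinary model. At day 3 the 1 gene called higher between genotypes was not called (0) without the filter, with only the arrays compared, with slide as a block or random block, with the replicate block and with the ordinary model, and 1 gene, Kcnc1, was called lower with probes above background on all 12 arrays. Of all genes 1.11% were called at day 3 by default, from 0% to 0.277% under the 6 that left 0, and 1.21% with those probes. Leaving out 1 array at a time gave 0 to 2 higher and 0 to 13 lower in WT, 0 to 3 higher and 0 to 6 lower in smSocs3-KO, and 0 to 2 higher and 0 to 1 lower at day 3, while 0% to 15.9%, 0.185% to 8.43% and 0.198% to 2.7% of all genes were called. Leaving out WT replicate 4 and smSocs3-KO replicate 5 at day 3 together, chosen after seeing the data, gave 2 higher and 13 lower in WT, 5 lower in smSocs3-KO and 2 higher at day 3, where 17.2%, 4.35% and 1.01% of all genes were called. No channel gene was called for the genotype difference before challenge or for the interaction in any alternative. Correlations of same-numbered deviations ran from -0.30 to 0.46, and those between the genotypes before challenge were 0.46 and 0.33. With so few such pairs, they do not settle whether replicate numbers pair the samples. The replicate block left 0 channel genes called in every comparison.

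For single named genes, 3497 values under an alternative kept their direction and side of the threshold, 41 passed it, 54 lost it and 221 values below it changed sign or otherwise moved. Over the alternatives, one of which takes in dimmer channel genes, the median response ran from -0.44 to -0.17 in WT and from -0.45 to -0.20 in smSocs3-KO, and the median genotype difference at day 3 from -0.26 to 0.16. Signal near background limits Kcna2, Kcnd2, Kcnt1 and Cacna2d4, which were not well above it on any array of at least 1 group. The cause of the changes between alternatives was not tested.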
